A study of Mus musculus with 9 samples.

Results

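The 10 mouse predicted genes described here are Gm10800, Gm10801, Gm11168, Gm10719, Gm10718, Gm10717, Gm10715, Gm26870, Gm21738 and Gm36480. They were chosen from the 43644 genes of the deposited table, 18024 of which carry a symbol of this kind (Gm and digits). The choice took the predicted genes with the largest opposite changes between MUT and WT and between REG and MUT. The values of those comparisons, and of REG against WT, which follows from both, are therefore given as a description, with no test. RNA was measured by sequencing total RNA from the coronal suture, where connective tissue joins the frontal bones to the parietal bones. The REG libraries came from Twist1+/- mice that had suture regeneration surgery at the age of 1 month. The MUT libraries came from Twist1+/- mice without surgery, and the WT libraries from wild-type mice without surgery. All mice were C57BL/6 and 7 months old at collection, and each group has 3 libraries. Twist1 encodes a basic helix-loop-helix transcription factor of cranial mesenchyme, and both REG and MUT carry its heterozygous loss. The labels do not say which allele it is or tie the libraries to separate animals, so p-values measure only the spread between these libraries.

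Much of the DNA next to the centromeres of the mouse autosomes and X chromosome is built of the major (gamma) satellite, a short AT-rich unit repeated in tandem. In most adult cells this pericentromeric DNA is packed as heterochromatin, marked by methylation of histone H3 at lysine 9 and bound by HP1 proteins, and it gives little RNA. Genome assemblies hold only fragments of such arrays, and gene prediction has placed gene models on some of them, so reads of satellite sequence can be counted under the symbols of such models.

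In GENCODE M21 (GRCm38, the assembly also known as mm10), the members lie at 4 places. Gm10801 (chr2:98662237-98664083, plus strand) and Gm10800 (chr2:98666547-98667301, minus strand) are neighbours on chromosome 2. Gm11168 (chr9:3003346-3006948), Gm10719 (chr9:3017408-3021593), Gm10718 (chr9:3023547-3025218), Gm10717 (chr9:3025417-3033289) and Gm10715 (chr9:3036877-3038316) follow each other on the plus strand at the beginning of the assembled chromosome 9. Gm26870 (chr9:3000282-3038313) lies over these 5 on the minus strand. Gm21738 (chr14:19415857-19418930, minus strand) and Gm36480 (chr15:90353706-90368444, plus strand) stand alone. Gm26870 and Gm36480 are annotated as long intergenic non-coding RNAs and the other 8 as protein-coding. The starts in the deposited table equal those of GENCODE for all 10 members.

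Of the 10 members, 9 hold copies of the same repeat. The unit of Gm21738, an exon of 234 bases, is shown first as the sequence to which the others are compared. The units of Gm10719, Gm10800 and Gm10801 are shown because they stand for chromosomes 9 and 2, and capitals mark the bases that differ from the Gm21738 unit. The Gm10800 stretch begins at base 141 of the unit and the Gm10801 stretch at base 3, and both run on into the next copy. A stretch of Gm36480 of the same length, the one most like the unit, is shown without capitals. All are exonic bases of GENCODE M21 transcripts on GRCm38, written 5′ to 3′.
Gm21738, chr14:19417133-19417366, minus strand: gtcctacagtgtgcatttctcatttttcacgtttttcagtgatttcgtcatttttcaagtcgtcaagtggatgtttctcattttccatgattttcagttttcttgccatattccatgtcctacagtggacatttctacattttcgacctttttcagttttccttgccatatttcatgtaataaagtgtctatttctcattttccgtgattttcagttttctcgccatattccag
Gm10719, chr9:3020786-3021019, plus strand: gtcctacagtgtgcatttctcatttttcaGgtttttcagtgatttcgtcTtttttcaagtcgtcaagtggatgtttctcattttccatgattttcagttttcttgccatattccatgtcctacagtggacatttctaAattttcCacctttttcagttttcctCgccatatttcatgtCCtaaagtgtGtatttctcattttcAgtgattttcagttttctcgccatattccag
Gm10800, chr2:98666747-98666980, minus strand: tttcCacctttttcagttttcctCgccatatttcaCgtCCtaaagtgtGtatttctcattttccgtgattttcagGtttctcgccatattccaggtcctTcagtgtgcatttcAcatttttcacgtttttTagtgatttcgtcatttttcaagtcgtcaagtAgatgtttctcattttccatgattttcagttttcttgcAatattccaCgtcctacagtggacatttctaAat
Gm10801, chr2:98662237-98662470, plus strand: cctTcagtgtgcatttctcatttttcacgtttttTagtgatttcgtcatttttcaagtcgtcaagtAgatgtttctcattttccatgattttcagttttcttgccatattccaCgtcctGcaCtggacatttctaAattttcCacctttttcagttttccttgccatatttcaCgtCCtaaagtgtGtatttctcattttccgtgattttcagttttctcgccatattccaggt
Gm36480, chr15:90368005-90368238, plus strand: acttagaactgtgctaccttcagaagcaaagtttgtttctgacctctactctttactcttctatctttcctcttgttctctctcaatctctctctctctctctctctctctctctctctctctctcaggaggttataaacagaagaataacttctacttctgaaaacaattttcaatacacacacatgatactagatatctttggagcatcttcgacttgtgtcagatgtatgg
The Gm10719 unit differed from the Gm21738 unit at 9 bases, the Gm10800 unit at 14 and the Gm10801 unit at 12. Apart from that of Gm21738, each unit was picked from its member for its likeness to the Gm21738 unit. The identities are therefore those of best copies, not of all copies in a member. Set against each other in the same phase, the units of the 9 members were 93.6% to 100% identical over 36 pairs, and 200 of the 234 bases (85.5%) were the same in all of them. The pair with no difference was Gm10719 and Gm26870, whose unit lies at chr9:3014005-3014238 and reads in this direction on the strand opposite to that of the Gm26870 gene. The Gm36480 stretch matched the unit at 38% of its bases.

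The repeat also shows within single members. Shifted against itself by 234 bases, the exonic sequence of Gm26870 was identical at 94.9% of 1070 bases compared and that of Gm10717 at 90.9% of 2232. A shift of 234 bases gave the highest identity of all shifts tried for 7 of the 10 members, among them Gm10801 with 79.2% over only 96 bases. The exceptions were Gm10800, Gm36480 and Gm21738. Gm21738 was identical at 94.8% of 155 bases at a shift of 351 bases and at 41.1% of 124 bases at 234. A shift of 58 bases gave 54.7% to 59% identity in the 9 members, against a median over all shifts of 30.2% to 31.7%, so the unit is itself made of shorter related pieces. The major satellite is known for this unit length and for such subrepeats, although no satellite reference sequence was used here. The exons of the 9 members were 63.8% to 65.7% A or T. Gm36480 had no such period: its best shift gave 31.4% identity.

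**Figure D1:**
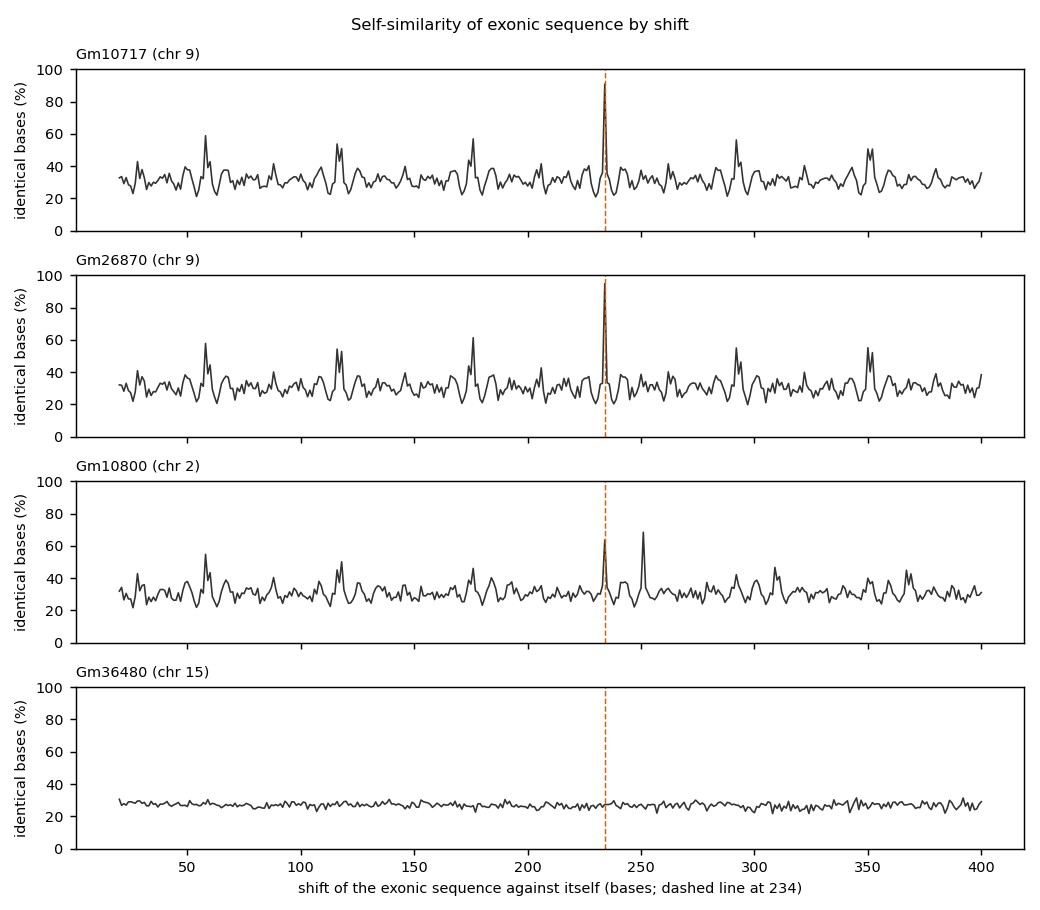
Identical bases (%, vertical axis) when the exonic sequence of 4 members is shifted against itself by the number of bases on the horizontal axis; the dashed line marks 234 bases. Gm10717 and Gm26870 peak at the dashed line, at 90.9% and 94.9%. Gm10800 peaks there at 63.6% and again at a shift of 251 bases at 68.4%, and Gm36480 shows no peak.

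Shared sequence sets how far the members can be told apart in 75-base reads. Of the distinct 31-base sequences of each transcript set, 35.8% (Gm10801) to 81% (Gm10718) recurred in another member for the 9 satellite-like members, and 0% for Gm36480. Of 75-base windows, as long as the reads, 2.79% (Gm10801) to 60.8% (Gm10718) were found unchanged in another annotated gene, and 0% for Gm36480. Copies outside annotated transcripts were not searched. Estimated reads of the members, Gm36480 included, were not whole numbers in any MUT library (0 of 10 members within 0.01 of a whole read). Of all genes with reads, 10.1%, 41.3% and 11.5% were whole in MUT replicates 1, 2 and 3, so fractions are not particular to the members. How the authors' counting divided a read between places is not given in the sources used here. Differences among the 9 members therefore carry that division, and their sum carries it only toward places outside them.

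**Figure D2:**
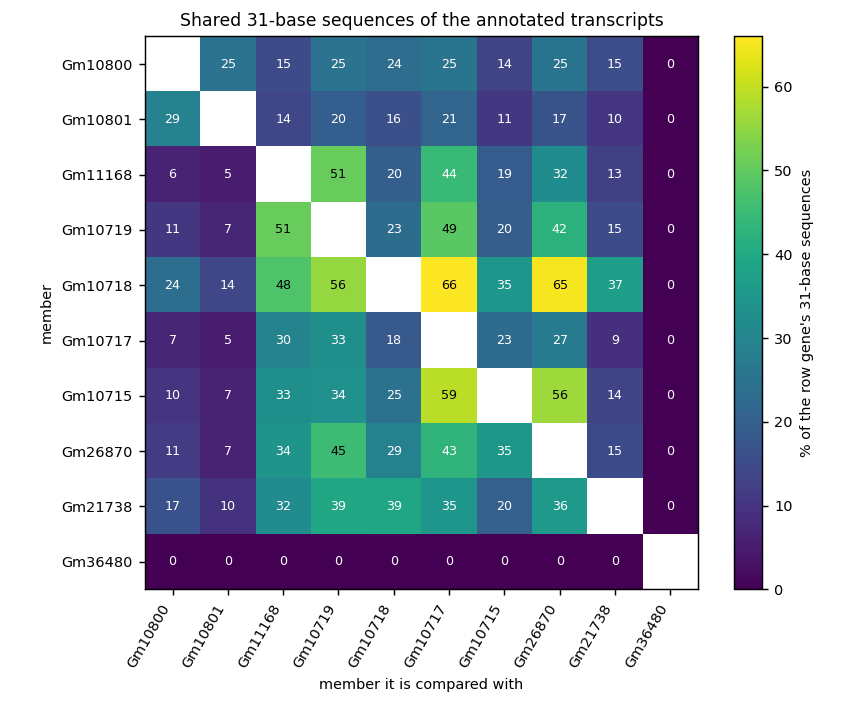
Percentage of the row gene's 31-base sequences (colour and printed value) found in the column gene, for each pair of the 10 members. Gm10718 shares 66% of its sequences with Gm10717 and 65.1% with Gm26870, the chromosome 2 pair share 25.2% and 29.3% with each other, and Gm36480 shares 0% with all.

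The gene models themselves are unusual. The 8 protein-coding members have 79 annotated introns, and 28 of them (35.4%) are shorter than 10 bases, as against 356 of 692595 introns (0.0514%) in all GENCODE M21 transcripts. Introns that short are below what the spliceosome is known to remove. Exons of Gm26870 overlap those of 4 members on the other strand, over 12.1% of the exonic bases of Gm10719, 12.4% of Gm11168, 22.8% of Gm10718 and 32% of Gm10715. Whether the libraries keep strand is not given, so reads of Gm26870 and of these 4 genes cannot be told apart there.

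The libraries were of unequal depth, and several measures beside the members moved with the groups. Estimated reads were 18276494 to 39377876 in REG, 2945636 to 10894209 in MUT and 16356391 to 20019712 in WT. Twist1 was at 10.2, 27.1 and 27.3 reads per 1000000 estimated reads (RPM) in REG, at 5.46, 27.2 and 3.20 in MUT and at 35.1, 44.1 and 48.2 in WT, so MUT replicate 2 lay within the REG values. All 14 genes of the suture and bone list were detected in every library. Of these, 12 were called lower in MUT than in WT (limma, adjusted p under 0.05), beside 14.6% of all genes tested. That share depends on scaling and filter: 876 genes were lower with total-read scaling, 7684 with trimmed-mean scaling, and 3985 of 11449 with a filter 10 times stricter. The list summed to 50662 to 91146 RPM in REG and 68856 to 110010 in WT. In MUT replicates 1, 2 and 3 it summed to 15934, 55026 and 9031, so replicate 2 again lay within the REG values. Olfactory and vomeronasal receptors, known from sensory neurons of the nose, summed to 2656 ± 1970 RPM in REG, 12945 ± 3886 in MUT and 2443 ± 877 in WT (SD, n = 3 each). Mitochondrially encoded genes took 12.5% ± 2.91 of reads in REG, 3.02% ± 1.52 in MUT and 11.4% ± 1.91 in WT. The library name of MUT replicate 2 is the only one that holds no group, so its group is read from its title alone. The names of REG replicates 1 and 2 end in a numbered suffix that names of WT libraries also carry, and the suffix of REG replicate 3 occurs once. What the suffix stands for, and whether libraries were sequenced apart, is not given.

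The 10 members together took a large share of the MUT libraries and almost none of the others. They held 0.00300%, 0.00682% and 0.000564% of estimated reads in REG, 17.5%, 3.84% and 11.5% in MUT, and 0.00302%, 0.00166% and 0.00504% in WT. The lowest MUT library was 563 times as high as the highest of the other 6, and REG and WT overlapped. The means were 0.00346% ± 0.00315 in REG, 10.9% ± 6.84 in MUT and 0.00324% ± 0.00170 in WT (SD, n = 3 each), a ratio of 3375 for MUT over WT and of 3159 for MUT over REG. By exact binomial (Clopper-Pearson) 95% intervals, which cover counting error only, the share in REG replicate 3 was between 0.000460% and 0.000683%, and in MUT replicate 2 between 3.82% and 3.86%. In such bulk samples a change in the number of cells that hold the RNA and a change in RNA per cell cannot be told apart. The receptor reads and the mitochondrial share above moved with the same 3 libraries, and their part in the members' values was not tested.

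**Figure D3:**
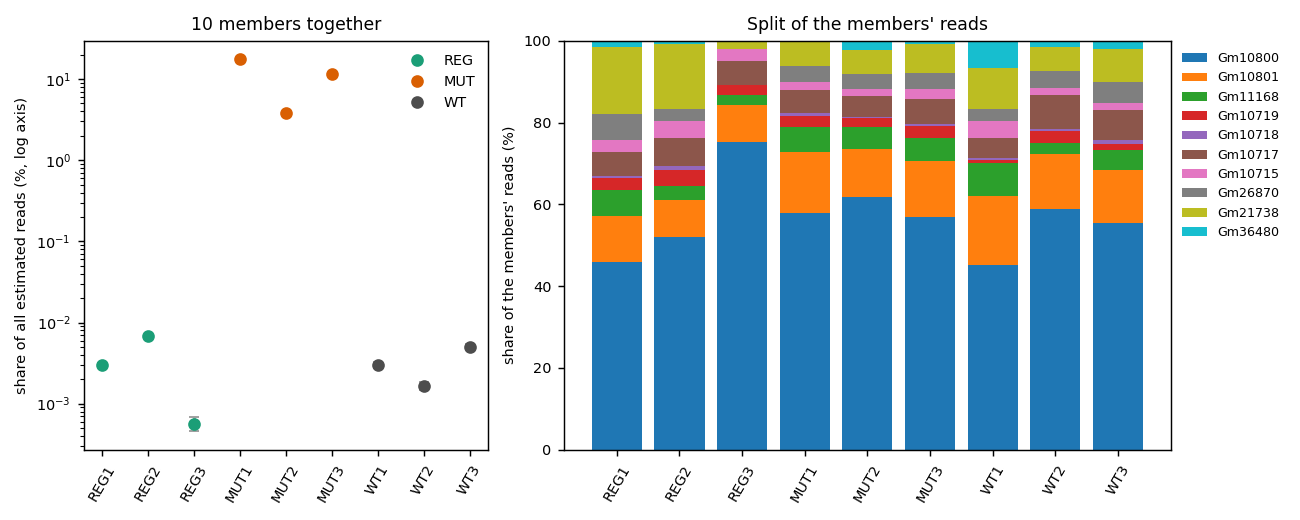
Left, share of all estimated reads held by the 10 members together (%, log axis) in each library, with exact 95% binomial intervals as bars; the 3 MUT libraries lie at 3.84% to 17.5% and the other 6 at or below 0.00682%. Right, how the members' reads divide among the 10 genes (%) in the same libraries; Gm10800 takes the largest part in each.

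Ranked by estimated reads among all genes, Gm10800 stood at 1, 6 and 1 in MUT replicates 1 to 3. It stood at 7814, 4110 and 12396 in REG and at 6772, 8134 and 3749 in WT. Within the first 100 genes there were 9, 7 and 9 members in the MUT libraries and 0 in each REG and WT library.

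The chromosome 2 pair held most of the members' reads. Gm10800 had deposited values (estimated reads on a scale that gives all libraries the same upper quartile) of 5.07, 12 and 1.91 in REG, 17957, 6979 and 10771 in MUT, and 6.32, 5.18 and 13.4 in WT. Every MUT library was above every other library, and REG and WT overlapped. Its log2 change was 10.43 ± 0.64 for MUT over WT and -11.01 ± 0.64 for REG over MUT (SE of the limma fit on log2 of the value plus 0.367). Gm10801 had values of 1.25, 2.14 and 0.252 in REG, 4630, 1316 and 2598 in MUT, and 2.37, 1.20 and 3.16 in WT. The MUT libraries were again the only high ones, and the changes were 9.99 ± 0.62 for MUT over WT and -10.85 ± 0.62 for REG over MUT. The pseudocount of 0.367 is near the REG and WT values of most members, so these log2 changes understate the ratio.

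Of the 6 members on chromosome 9, Gm11168, Gm10717 and the opposite-strand Gm26870 were the highest in MUT. Gm11168 had values of 0.692, 0.761 and 0.0850 in REG, 1940, 603 and 1076 in MUT, and 1.14, 0.264 and 1.24 in WT. Gm10717, the longest by exonic bases (3856), had values of 0.668, 1.59 and 0.171 in REG, 1776, 565 and 1156 in MUT, and 0.697, 0.737 and 1.78 in WT. Both showed the same order of libraries within MUT, replicate 1 above 3 above 2. Gm26870 had values of 0.688, 0.694 and 0.0244 in REG, 1182, 416 and 766 in MUT, and 0.447, 0.377 and 1.22 in WT. Its value in REG replicate 3 equals that of a gene with no read there. The log2 changes of these 3 were 9.87 ± 0.57, 9.59 ± 0.58 and 9.52 ± 0.55 for MUT over WT.

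Gm10719, Gm10715 and Gm10718 lay lower on the same scale. Gm10719 had values of 0.331, 0.942 and 0.0891 in REG, 856, 240 and 555 in MUT, and 0.153, 0.277 and 0.392 in WT. Gm10715 had values of 0.341, 0.976 and 0.0993 in REG, 632, 187 and 437 in MUT, and 0.619, 0.190 and 0.477 in WT. Gm10718, which shares the most sequence with other members, was the lowest of the 9 satellite-like members, with 0.0652, 0.246 and 0.0244 in REG, 164, 47 and 94.7 in MUT, and 0.0846, 0.0791 and 0.236 in WT. In all 3 genes the MUT libraries stood apart and REG overlapped WT, and their changes for MUT over WT ran from 7.51 ± 0.46 (Gm10718) to 9.58 ± 0.54 (Gm10719). Gm10718 rested on 2 reads in each of WT replicates 1 and 2 and on none in REG replicate 3, where 3 reads would have been 0.164 RPM.

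Gm21738 on chromosome 14 followed the members of chromosomes 2 and 9. Its values were 1.82, 3.65 and 0.0731 in REG, 1888, 668 and 1314 in MUT, and 1.41, 0.553 and 2.00 in WT. The log2 changes were 9.56 ± 0.77 for MUT over WT and -9.56 ± 0.77 for REG over MUT, with the largest SE of the members. It rested on 2 reads in REG replicate 3 and on 20 in WT replicate 2.

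Gm36480 on chromosome 15 shared no sequence with the others and had another order of libraries. Its values were 0.177, 0.213 and 0.0244 in REG, 48.3, 260 and 170 in MUT, and 0.959, 0.158 and 0.506 in WT. All MUT libraries were above all others, yet replicate 1, the highest MUT library for the other 9 members, was the lowest here. In RPM it had 271, 885 and 1028 in the MUT libraries. The log2 changes were 7.25 ± 0.60 for MUT over WT and -8.02 ± 0.60 for REG over MUT.

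**Figure D4:**
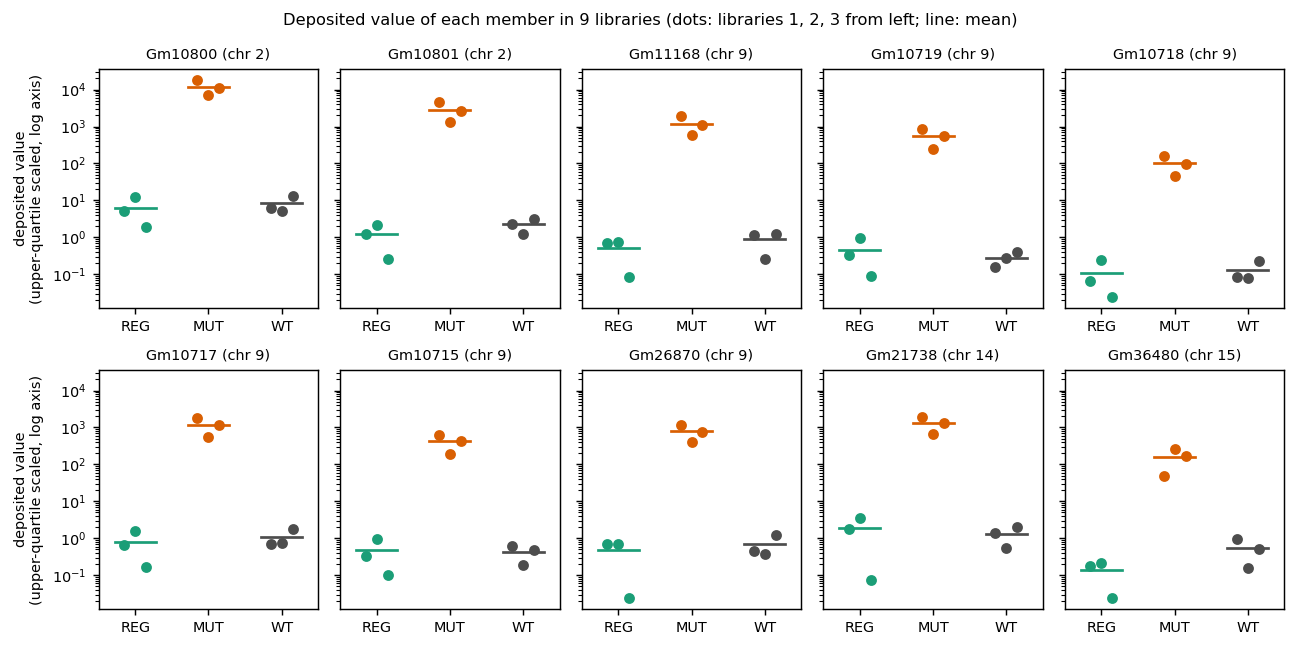
Deposited value (upper-quartile scaled, log axis) of each member in the REG, MUT and WT libraries; dots are libraries 1 to 3 from left to right and lines are group means. In every panel the 3 MUT dots lie above all others, and REG replicate 3 is the lowest dot; MUT replicate 1 is the highest MUT dot except for Gm36480.

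All 10 members were called higher in MUT than in WT and lower in REG than in MUT, as the choice of members required. Across all 29107 genes tested, 20.5% were called higher in MUT than in WT and 24.8% lower in REG than in MUT (limma, adjusted p under 0.05). In either direction the calls came to 35.1% for MUT against WT and 36.6% for REG against MUT. MUT libraries lay above all WT libraries for 32.6% of genes and above all REG libraries for 28.5%. Nothing is read from the members' counts against these shares. The split of calls depended on scaling: 5964 genes were higher and 4261 lower in MUT than in WT as deposited, 11734 and 876 with total-read scaling, and 1674 and 7684 with trimmed-mean scaling. The same scalings gave, for REG over MUT, 3432 higher and 7221 lower, 982 and 11455, and 8634 and 1735. The median change of all genes for MUT over WT was 0.18, 1.11 and -0.63 under these scalings, and that of the members minus it was 9.39, 9.56 and 9.30. For REG over MUT the median of all genes was -0.36, -1.04 and 0.76, and that of the members minus it was -9.37, -9.54 and -9.21. The filter on low values was passed by all 10 members, but 7 would have passed on the 6 REG and WT libraries alone.

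For REG over WT the members' log2 changes ran from -0.87 (Gm10801) to 0.24 (Gm10719), with SEs of 0.46 to 0.77 and a median of -0.39, beside a median of -0.18 over all genes. REG and WT overlapped for all 10 members, while over all genes REG lay above WT without overlap for 4.03% and below it for 12.1%. Across all genes limma called 0 between REG and WT, with 2755 of 29107 at an unadjusted p under 0.05, and the percentage called was 0. Without REG replicate 3 it called 1616 genes, and the members' median was 0.06. That library was the lowest of the 9 for all 10 members in RPM, and its members' reads numbered 103.

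The authors' deposited table gives ratios without the pseudocount used here. In the authors' deposited table the log2 ratio of WT over MUT ran from -10.97 (Gm10719) to -8.20 (Gm36480), so that a negative value means higher in MUT. The log2 ratio of REG over MUT in the authors' deposited table ran from -11.20 (Gm10801 and Gm11168) to -9.45 (Gm21738). The log2 ratio of WT over REG in the authors' deposited table ran from -0.73 (Gm10719) to 1.97 (Gm36480).

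The 9 satellite-like members moved nearly in proportion within MUT. In RPM, MUT replicate 1 was 4.26 (Gm10800) to 5.91 (Gm10719) times replicate 2 and 1.33 (Gm21738) to 1.67 (Gm11168) times replicate 3. For Gm36480 the ratios of replicate 1 to replicates 2 and 3 were 0.307 and 0.264. Of the members' summed reads, Gm10800 took 46% to 75.2% in REG, 56.9% to 61.9% in MUT and 45.2% to 58.9% in WT. The 6 chromosome 9 members took 13.8% to 24.8% in REG, 18.2% to 21.6% in MUT and 20.2% to 21.5% in WT. Gm21738, alone on chromosome 14, took 16.5%, 15.7% and 1.94% in REG, 6.08%, 5.92% and 6.94% in MUT, and 9.93%, 6.02% and 8.19% in WT. The chromosome 2 pair took 57.2%, 61.2% and 84.3% in REG, 72.7%, 73.5% and 70.6% in MUT, and 62%, 72.3% and 68.3% in WT. The range of shares was thus narrowest in MUT and widest in REG for Gm21738 and for the chromosome 2 pair. For the chromosome 9 members it was also widest in REG but narrowest in WT. For Gm36480 it was narrowest in REG and widest in WT. For Gm21738, REG replicates 1 and 2 lay above all MUT and WT libraries, and REG replicate 3, with few reads, lay below them.

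The order of levels per length was led by Gm10800 in all groups, followed by Gm10801 in MUT and WT and by Gm21738 in REG. In RPM per kilobase of exon, Gm10800 averaged 27 ± 24.2 in REG, 95999 ± 58617 in MUT and 25.9 ± 14.5 in WT (SD, n = 3 each). Gm10801 averaged 6.72 ± 5.72 in REG, 30608 ± 21411 in MUT and 9.16 ± 4.35 in WT. Gm21738 averaged 7.73 ± 7.81 in REG, 10210 ± 6263 in MUT and 3.98 ± 2.33 in WT. The other 7 members averaged 604 (Gm36480) to 3434 (Gm11168) in MUT. Since the members share their libraries, the order was read within each library: in all 3 MUT libraries Gm10800 was above Gm10801, and below these followed Gm21738 and Gm11168. Gm10719, Gm10717 and Gm26870 changed places between MUT libraries, and Gm36480 was the lowest member in MUT replicate 1 but above Gm10715 in MUT replicate 2. In REG, Gm21738 was above Gm10801 in replicates 1 and 2 and below it in replicate 3. The median receptor gene was at 0.743 to 2.33 reads per kilobase in REG, 1.85 to 20.2 in MUT and 0.982 to 1.33 in WT. Over that density, the lowest member stood 0 to 7.28 times as high in REG, 121 to 503 times in MUT and 2.18 to 6.41 times in WT.

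The smaller of the opposite log2 changes ran from 10.43 for Gm10800 to 7.25 for Gm36480 among the members. The next gene in this order was Col3a1, which encodes a fibrillar collagen of connective tissue and moved the other way, at -8.13 for MUT over WT and 7.19 for REG over MUT. Gm10722, the next predicted gene, stood at 7.10 and -7.27.

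The 4 genes outside the members that share most of their 31-base sequences with them lie among the chromosome 9 members. The shares were 94.4% for Gm10720, 93.3% for Gm17535, 89.3% for Gm10721 and 76.8% for Gm10722, and the next gene had 15.4%. Gm10722 was at 0.0286, 0.0458 and 0 RPM in REG, 587, 120 and 353 in MUT, and 0.0747, 0 and 0.235 in WT. Its change for MUT over WT was 7.10 ± 0.41 (limma adjusted p = 4.22e-05), and for REG over MUT -7.27 ± 0.41 (limma adjusted p = 3.61e-05). Gm10721 was at 0.152, 0.221 and 0.219 RPM in REG, 313, 60.1 and 286 in MUT, and 0, 0.128 and 0.0980 in WT (limma adjusted p = 7.74e-05 for MUT over WT). Gm10720 and Gm17535 had no WT read, so their MUT means of 78.9 and 46.7 RPM were at least 1479-fold and 877-fold higher than the 3 reads over the group that the WT depth could have missed. All 4 were called higher in MUT than in WT and lower in REG than in MUT, and all kept replicate 2 as the lowest MUT library. They share sequence and libraries with the members and are no independent support.

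The profiles over the 9 libraries nearest to the members' mean, by the root mean square difference of centred log2 values, were those of Gm10722 (1.13), Gm48515 (1.41), Gm43910 (1.41), Gm10721 (1.53) and 1200007C13Rik (1.65). The members themselves stood at 0.26 (Gm26870) to 1.27 (Gm36480) from that mean. Gm48515 on chromosome 14, an annotated pseudogene, was at 0.488, 4.09 and 0.0590 RPM in REG, 496, 861 and 1524 in MUT, and 9.22, 1.15 and 1.79 in WT. Gm43910 on chromosome 6 was at 1.26, 1.26 and 2.03 in REG, 455, 1022 and 1711 in MUT, and 5.14, 0.919 and 1.86 in WT. 1200007C13Rik, an annotated long non-coding RNA on chromosome 2, was at 13.9, 0.728 and 0.274 in REG, 532, 858 and 701 in MUT, and 2.81, 0.443 and 0.259 in WT. These 3 share at most 0.47% of their 31-base sequences with the members. Like Gm36480 they had their lowest MUT value in replicate 1, where the satellite-like members had their highest.

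Genes next to the members did not show changes of that size. Taking the 3 nearest tested genes on each side of each place, a choice made after the members' values were seen, gave 21 genes at 95.5 to 2893 kilobases. No gene before the chromosome 9 members was tested. For MUT over WT, 5 were called higher and 4 lower, beside 20.5% and 14.6% of all genes. Their log2 changes ran from -3.22 to 2.18, against at least 7.25 for the members. The pseudocount shrinks the changes of neighbours with few reads. Gm7089 on chromosome 14 was at 5.08, 5.63 and 3.14 RPM in MUT and 0.0611, 0.108 and 0 in WT, with a change of 1.68. Gm13812 and Gm13810 on chromosome 2 had identical values and are not separate measurements. Between REG and MUT, 0 were called higher and 4 lower in REG, beside 11.8% and 24.8% of all genes, with changes from -1.76 to 1.46. The nearest, 4930433N12Rik on chromosome 9, was at 1.34 ± 0.37 for MUT over WT (limma adjusted p = 0.0202) and -1.63 ± 0.37 for REG over MUT (limma adjusted p = 0.00877). It too had few reads outside MUT, at 0.0254, 0.132 and 0.109 RPM in REG, 3.96, 1.70 and 9.90 in MUT, and 0.367, 0.0595 and 0.333 in WT.

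Of the 35 tested genes that act on pericentromeric heterochromatin and satellite silencing, 1 was called higher and 15 lower in MUT than in WT, beside 20.5% and 14.6% of all genes, and the median change was -1.19 against 0.18 for all genes. For REG over MUT, 9 were called higher and 1 lower, beside 11.8% and 24.8% of all genes, with a median of 0.74 against -0.36. With total-read scaling the medians were 0.01 and -0.09, so the direction depends on scaling. Minus the median of all genes, the list was at -1.37 as deposited, -1.10 with total-read and -1.39 with trimmed-mean scaling for MUT over WT. Much of that gap was shared with other well-detected genes: with a filter 10 times stricter the list was at -0.33 minus the median of the 11449 genes left for MUT over WT and at 0.014 for REG over MUT. Under that filter 0 of 33 list genes were higher and 15 lower in MUT than in WT, beside 910 higher and 3985 lower over all genes, and for REG over MUT 8 were higher and 0 lower, beside 2780 and 872. With total-read scaling 1 gene was called higher and 4 lower in MUT than in WT, and with trimmed-mean scaling 0 higher and 29 lower. On the deposited scale the 15 lower calls became 7 without MUT replicate 3, 8 without WT replicate 2, 9 without WT replicate 3 and 10 without MUT replicate 1 or WT replicate 1. Between REG and WT limma called 0 of the 35, with 4 at an unadjusted p under 0.05.

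Levels here are in RPM, while log2 changes are on the deposited scale unless another scaling is named, so the ratio of RPM can differ from the change. Lmna encodes the lamins A and C, which tether heterochromatin to the nuclear envelope. It was at 216, 386 and 220 RPM in REG, 46.9, 37.9 and 69.9 in MUT, and 204, 292 and 321 in WT, and its log2 change for MUT over WT was -3.62 ± 0.36 (limma adjusted p = 0.000737). Ehmt2, a histone H3 lysine 9 methyltransferase, was at 132, 97.1 and 109 in REG, 96.3, 46.3 and 88.1 in MUT, and 243, 144 and 179 in WT (-2.55 ± 0.33, limma adjusted p = 0.00136). Morc2a, an ATPase that acts with the HUSH silencing complex, was at 28.6, 27.1 and 35.4 in REG, 26.8, 15.8 and 17.5 in MUT, and 44.1, 41.7 and 43 in WT (-2.27 ± 0.35, limma adjusted p = 0.00222). All 3 stayed called lower in MUT than in WT under total-read and trimmed-mean scaling, at -2.40 and -4.47 for Lmna, -1.32 and -3.42 for Ehmt2, and -1.10 and -3.06 for Morc2a. With total-read scaling that left out the members' reads Lmna was still called at -2.23, while Ehmt2 at -1.15 and Morc2a at -0.93 were not. The 1 gene called higher, Suv39h2, a histone H3 lysine 9 methyltransferase of pericentromeric heterochromatin, was named after its values were seen. It was at 1.97, 3.21 and 4.99 RPM in REG, 19.7, 15.4 and 27 in MUT, and 4.33, 2.44 and 1.84 in WT, with a log2 change of 1.40 ± 0.41 for MUT over WT (limma adjusted p = 0.026). Its change for REG over MUT was -1.49 ± 0.41 (limma adjusted p = 0.0191). With total-read scaling, the scale of RPM, the changes were larger, at 2.5 for MUT over WT and -2.3 for REG over MUT. The call for MUT over WT was lost with trimmed-mean scaling, at 0.61, and without any 1 of the 3 MUT libraries or WT replicate 2 or 3; over all 9 libraries left out in turn the change ran from 1.18 to 1.64.

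The other lists serve as comparison. Of 19 genes of the centromere and inner kinetochore, 2 were called higher and 2 lower in MUT than in WT, with a median of 0.18, the same as for all genes. Cenpb, which binds a motif of the minor satellite in mouse, had a log2 change of -2.41 ± 0.38 (limma adjusted p = 0.00256), Cenpc1 of -1.34 ± 0.40 (limma adjusted p = 0.0286) and Cenpw of 1.27 ± 0.43 (limma adjusted p = 0.0426). With total-read scaling Cenpc1 was at -0.24 and no longer called, and with trimmed-mean scaling Cenpw was at 0.61 and no longer called. Both calls were lost without any single MUT or WT library, at -1.61 to -0.93 for Cenpc1 and 1.03 to 1.44 for Cenpw. Of 10 nuclear-retained long non-coding RNAs, 7 were called lower and 0 higher in MUT than in WT (median -2.27), among them Malat1 at -3.97 ± 0.54 (limma adjusted p = 0.00155), Neat1 at -2.89 ± 0.41 (limma adjusted p = 0.00174) and Tug1 at -2.20 ± 0.37 (limma adjusted p = 0.00316). Over all genes 20.5% were called higher and 14.6% lower. Among the genes left by the 10 times stricter filter, on the deposited scale, 910 were called higher and 3985 lower in MUT than in WT. With total-read scaling the calls over all genes were 11734 higher and 876 lower. Malat1 and Neat1 stayed called lower with total-read scaling, at -2.72 and -1.64, while Tug1, at -0.98, did not. For REG over MUT, 3 genes of the centromere list and 6 of the nuclear RNAs were called higher and 0 lower. Over all genes 11.8% were called higher and 24.8% lower, and with the stricter filter 2780 and 872 of 11449. With total-read scaling Cenpb, Cenpc1 and Tug1 lost this call. Malat1 and Neat1 kept it, but lost it when that scaling left out the members' reads. The list of RNA polymerase I and III transcripts had 9 tested genes, all of polymerase III. Rn45s, its only polymerase I transcript, was not in the deposited table, so polymerase I was not tested. Of the 9, limma called 0 in either comparison, with 0 at an unadjusted p under 0.05. Rmrp, the RNA of a nuclear ribonuclease, was at 6214, 2460 and 675 RPM in REG, 616, 2977 and 452 in MUT, and 2453, 747 and 1593 in WT, so the groups overlapped. Rny1, a Y RNA, and Rn7s6, a 7SL RNA, had log2 changes of 1.99 ± 1.07 and 1.29 ± 0.81 for MUT over WT, with limma adjusted p of 0.172 and 0.239.

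Wider classes of genes changed at far smaller sizes, on the deposited scale. Of 7846 other predicted genes tested, 29.3% were called higher and 4.10% lower in MUT than in WT, with a median of 0.71, although together they took 14.7% ± 2.31 of reads in REG, 15.9% ± 0.927 in MUT and 17.5% ± 3.21 in WT (SD, n = 3 each). Of 1074 receptor genes tested, 70% were called higher and 0.652% lower in MUT than in WT. Of 35 mitochondrially encoded genes, 3 were called higher and 17 lower. In the suture and bone list, the smallest p-values were those of Col3a1 (-8.13 ± 0.58, limma adjusted p = 0.000119), Postn, a matrix protein of sutures and periosteum (-5.85 ± 0.43, limma adjusted p = 0.000132), and Prrx1, a transcription factor of skeletal progenitors (-2.68 ± 0.37, limma adjusted p = 0.00161).

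**Figure D5:**
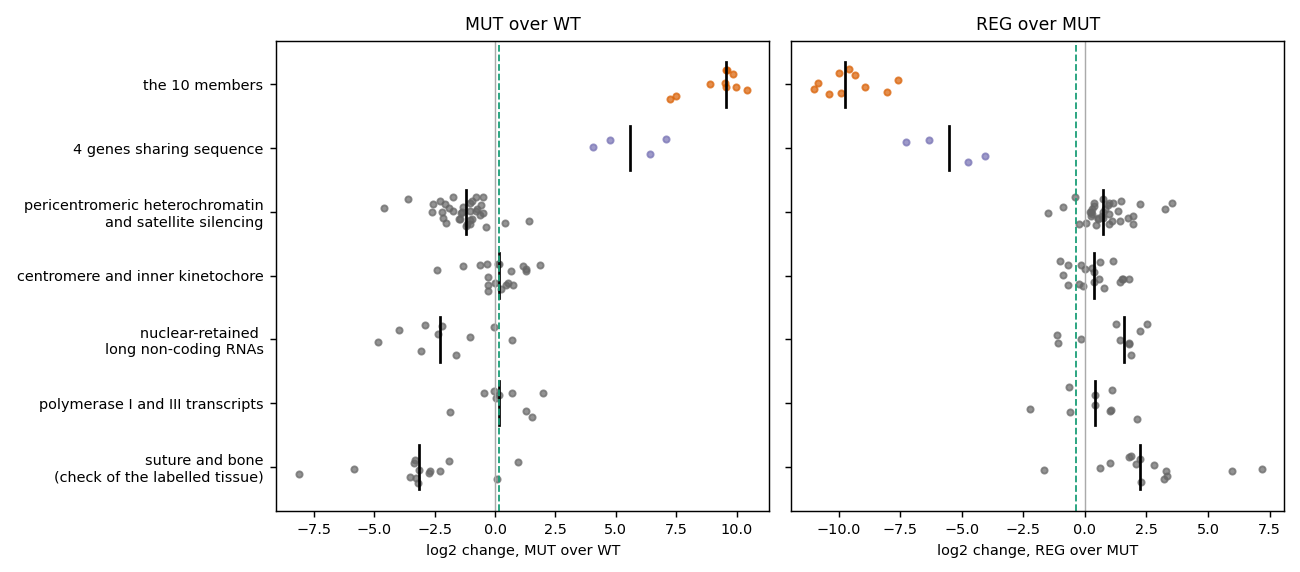
Log2 change of each gene (dots) in the members, in the 4 genes that share their sequence and in 5 gene lists, for MUT over WT (left) and REG over MUT (right); black bars are medians and the green dashed line is the median of all genes tested. The members lie at 7.25 to 10.43 on the left and -11.01 to -7.59 on the right, with medians of 9.57 and -9.73, and no list has a median near theirs; positions of the lists against 0 depend on scaling.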

How the data were processed

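Total RNA of 9 coronal suture libraries was sequenced with single-end reads of 75 cycles, per the labels' protocols. Per the submitters' processing notes, the tools were STAR 2.6.1d and Partek and the build mm10. How reads were counted, on which annotation, and how values were normalized is not given in the sources used here. What the deposited matrix holds is a signal per gene and library, with an upper quartile (75th percentile) of 2.76 in every library, from which upper-quartile scaling is inferred. Each value reads as estimated reads plus 1, times a factor per library, and many are fractional. The deposited gene table gives, per the file headers, the sum, maximum and means of these values (a score per gene), positions, and the authors' log2 ratios. Matrix columns were tied to genes where all 4 statistics matched within 1e-06 (43644 of 43644).

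Estimated reads, reads per 1000000 and shares were computed from the values. One limma 3.58.1 fit (R 4.3.3) of log2(value + 0.367), on all 9 libraries and the 29107 genes at or above 0.367 in at least 3, gave changes, SEs and two-sided p-values with Benjamini-Hochberg adjustment; a call is an adjusted p under 0.05. Changes printed beside RPM are those of this fit, on the deposited scale, unless another scaling is named. The fit was tested on simulated data. Exact permutation of 3 against 3 libraries cannot go below p = 0.1 and was not used. Sequence sharing (31-base sequences, both strands), repeat periods and units came from GENCODE M21 transcripts (GRCm38), with Python 3.11.15 and numpy 2.4.6.

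The members and lists were chosen with earlier results of these data known. Named genes are the members, the next gene by the smaller opposite change, genes sharing at least 50% of their 31-base sequences, the 5 nearest profiles, Twist1, and the 3 of smallest p in MUT against WT per list; other names are said to be chosen after their values were seen. Alternatives were total-read (with and without the members) and trimmed-mean scaling, filters, pseudocounts, 2-group fits, a replicate block, each library left out, and REG replicate 3 alone, the last added after seeing the data. The lists were pericentromeric heterochromatin and satellite silencing, centromere and inner kinetochore, nuclear-retained long non-coding RNAs, polymerase I and III transcripts, and suture and bone.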

Additional observations from a re-analysis of the deposited data

How the results depend on the processing

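Under every alternative all members tested stayed far higher in MUT than in WT and lower in REG than in MUT. The members' median change for MUT over WT (9.57) moved to 10.67 with total-read scaling, 10.84 with that scaling without the members' reads, 8.67 with trimmed-mean scaling and 7.60 with a pseudocount 10 times higher, and ran from 9.22 to 10.04 with each library left out. For REG over MUT (-9.73) it was -8.45 with trimmed-mean scaling, -7.63 with the higher pseudocount and -10.89 with REG replicate 3 alone, and -10.29 to -9.20 with each library left out. For REG over WT (-0.39) it was -1.34 with REG replicate 3 alone and -0.71 to 0.06 with each library left out. Of 558 single-member values under alternatives, 79 moved by more than the spread between libraries and none changed direction in MUT against WT or REG against MUT.

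The median of the heterochromatin list for MUT over WT (-1.19) was 0.0123 with total-read scaling, 0.18 with that scaling without the members' reads, -2.02 with trimmed-mean scaling, -0.87 with the higher pseudocount and -1.32 to -1.04 with each library left out. For REG over MUT (0.74) it was -0.0915, -0.25 and 2.03 under the 3 scalings, 1.47 with REG replicate 3 alone and 0.34 to 1.09 with each library left out; for REG over WT (-0.69) it was 0.24 with REG replicate 3 alone and -1.07 to -0.33 with each library left out. The scalings set the zero point of these medians. With the 10 times stricter filter they were -1.32 for MUT over WT and 0.75 for REG over MUT, but the median of all genes was then -0.99 and 0.73.

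Calls over all genes for MUT against WT (10225) fell to 4895 with a 10 times stricter filter, which tests fewer genes, came to 14112 with only the 2 groups compared, and ran from 3756 (without MUT replicate 3) to 12716 with each library left out. For REG against MUT (10653) they were 3652 with the stricter filter, 6051 with only the 2 groups compared and 3646 (without MUT replicate 3) to 11674 with each library left out, and for REG against WT (0) they were 0 to 1616, the 1616 without REG replicate 3; the cause was not tested. The replicate numbers did not pair the libraries: 1 of 9 same-numbered pairs had deviations correlated above 0.1, with values of -0.196 to 0.102. Of 18 pairs with different numbers, 3 were above 0.1, with values of -0.218 to 0.379. With a replicate block 8766, 9373 and 0 genes were called for MUT against WT, REG against MUT and REG against WT, and the members' medians were unchanged. Depth limits the members' values in REG and WT, where Gm10718 and Gm36480 had no read in REG replicate 3.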
